A study of Mus musculus with 8 samples.

Results

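Potassium channel genes were taken from the islet count table by symbol: every entry whose symbol begins with Kcn followed by family letters and a number, together with Abcc8 and Abcc9, the sulfonylurea receptors. The rule found 99 of the table's 24537 genes, 95 of them protein coding and 4 non-coding transcripts named after a channel gene (Kcnq1ot1, Kcnd3os, Kcnmb4os1 and Kcnmb4os2). Expression was measured by RNA-seq of polyadenylated RNA from whole islets, isolated from male mice at an age of 12 weeks. There were 4 wild-type (WT) samples and 4 from Wfs1 knockout animals (Wfs1KO). No treatment was given in either genotype, and the labels name no strain, no Wfs1 allele and no pooling of animals. The product of Wfs1, wolframin, spans the membrane of the endoplasmic reticulum. The question was which channel subunits islets express and how each differs between the genotypes.

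Potassium channels set the membrane potential of the islet's endocrine cells. In beta cells the KATP channel, a complex of Kir6.2 pores (Kcnj11) and SUR1 receptors (Abcc8), is open at low glucose and closes as ATP rises, and the resulting depolarisation opens calcium channels and starts insulin release. Voltage-gated channels and calcium-activated channels repolarise the cell after each action potential, while two-pore (K2P) channels carry background current.

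Libraries held between 15810830 and 27057617 exon counts, of which the members made up 0.302% to 0.334%. Wfs1 itself was detected at 182, 156, 190 and 188 CPM (counts scaled to a common library size) in the WT libraries. Wfs1KO libraries held 101, 105, 125 and 98.9 CPM, and values are listed in the order of replicates 1 to 4 throughout. Its log2 fold change was -0.74 (standard error, SE, 0.0817, edgeR adjusted p = 5.06e-05), and every Wfs1KO library lay below every WT library, but reads of the gene remained. Where these reads lie within the gene cannot be seen in counts summed per gene, and the labels do not say how Wfs1 was altered. The first principal component, with 37.9% of the variance, placed replicates 1 and 2 of both genotypes on one side and replicates 3 and 4 on the other, and the second, with 28.4%, separated the genotypes. Pancreatic beta, alpha and delta cell markers were abundant in all 8 libraries. Acinar markers were too, at a summed 27801 to 62075 CPM in WT and 8549.9 to 59379 CPM in Wfs1KO.

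Levels of different genes were compared as RPKM, which is CPM divided by transcript length in kilobases, using the length in the deposited table. A few subunits dominated. Abcc8 was the most abundant member, at 314 ± 15.9 RPKM in WT (SD, n = 4). It was followed by Kcnk16, the pore of the K2P channel TALK-1, at 163 ± 25.8 RPKM and by Kcnj11 at 66.9 ± 2.33 RPKM. These 3 genes made up 62.5% of the summed RPKM of coding members in WT. The WT ranges of the 3 did not overlap one another.

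Next in WT came Kcnmb2, an inactivating beta subunit of the BK channel, at 54.5 ± 1.49 RPKM. A pair of ERG channel pores followed, Kcnh6 at 39.5 ± 3.34 RPKM and Kcnh2 at 37.5 ± 2.30 RPKM, whose WT libraries overlapped, so that their order was not resolved. Kcnip1, a calcium-binding KChIP subunit of Kv4 channels, stood at 28.0 ± 0.535 RPKM. Kcnk1 (TWIK-1) had 15.4 ± 1.52 RPKM and Kcnma1, the BK pore, 12.3 ± 1.03 RPKM, and their WT ranges did not overlap. In all, 11 coding members reached 10 RPKM in WT, 29 lay from 1 to 10 RPKM and 55 were under 1 RPKM.

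**Figure D1:**
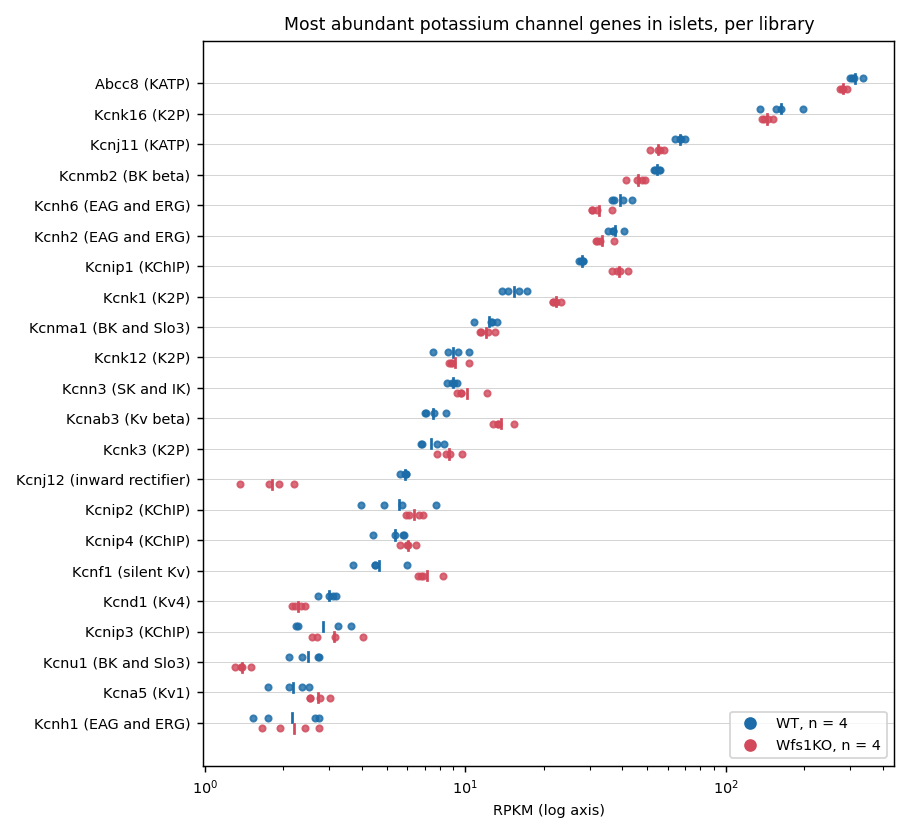
RPKM (log axis) in each of the 4 WT and 4 Wfs1KO libraries for the 22 most abundant coding potassium channel genes reported here. Points are libraries and short vertical lines are group means. Within each genotype Abcc8, Kcnk16 and Kcnj11 lie above all other members, and Kcnj12 has the widest gap between genotypes.

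Enough reads for a test were present for 70 members, 69 of them coding. The other 29 had a mean of at most 0.632 CPM in either genotype. None of the 99 was without any read, and 17 had 0 reads in at least 1 library. Of the 70 tested, 10 rose in Wfs1KO (14.3%, against 10.4% of all tested genes), 12 fell (17.1%, against 8.49% of all) and 48 were not called, at an edgeR adjusted p under 0.05 over all 15733 tested genes. The members' median log2 fold change was 0.11, with 62.9% above 0, beside a median of 0.01 and 52.7% above 0 over all tested genes. Among the 48 that were not called, 5 had 4 Wfs1KO libraries outside the WT range (10.4%, against 6.82% of all genes not called): Kcnmb1, Kcnk10, Kcnc1 and Kcna5 above it, and Abcc8 below it. By the authors' deposited table, 24 of the 99 had an adjusted p under 0.05 (24.2%, against 12.4% of all its genes), 10 with a fold change above 0 and 14 below.

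Of the 20 most abundant coding members over all libraries, 4 rose, 6 fell and 10 were not called. Of the 49 other tested coding members 6 rose, 6 fell and 37 were not called. Over all tested genes 10.4% rose and 8.49% fell. No share was computed for genes of similar abundance, and genes with more reads are easier to call. Summed over all coding members, expression was 869 ± 24.7 RPKM in WT and 813 ± 10.9 RPKM in Wfs1KO, a sum set mainly by Abcc8, Kcnk16 and Kcnj11. Because these are whole islets, a lower value may reflect fewer cells of a type or less RNA per cell, which cannot be told apart.

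**Figure D2:**
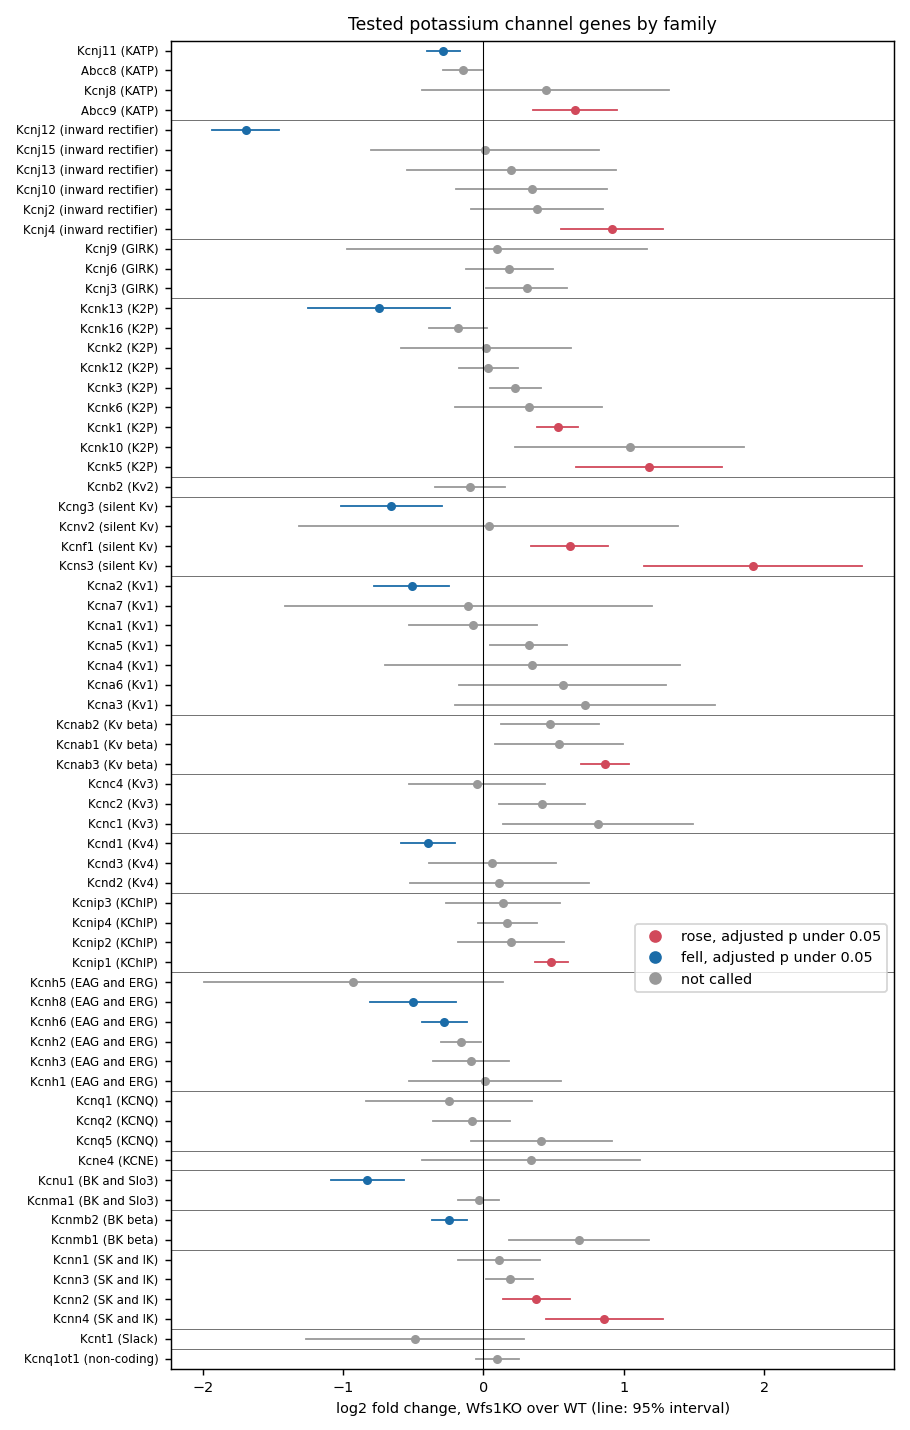
log2 fold change of Wfs1KO over WT with its 95% interval for the tested members reported here, grouped by channel family. Red points rose, blue points fell and grey points were not called at an adjusted p of 0.05. Kcnj12 lies farthest to the left at -1.70 and Kcns3 farthest to the right at 1.92, a gene tested through its Wfs1KO libraries.

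The KATP channel genes form 2 pairs, each of a pore gene beside its receptor gene. Kcnj11 (chr7:46097123-46100237, minus strand, mm10) lies next to Abcc8 (chr7:46104523-46180033, minus strand), and Kcnj8 (chr6:142564837-142571614, minus strand), the Kir6.1 pore, lies next to Abcc9 (chr6:142587862-142702274, minus strand), the SUR2 receptor. The first pair is the beta cell form, and the second is known from vascular muscle and heart.

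Kcnj11 fell. Its levels were 210, 199, 208 and 216 CPM in WT and 160, 171, 173 and 180 CPM in Wfs1KO, so every Wfs1KO library was below every WT library. The log2 fold change was -0.28 (SE 0.0537, edgeR adjusted p = 0.00209), that is 0.821 times the WT level.

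Abcc8 was lower by a smaller amount and was not called. It stood at 1480, 1653, 1532 and 1497 CPM in WT and at 1375, 1355, 1387 and 1440 CPM in Wfs1KO, again without overlap. The log2 fold change was -0.15 (SE 0.0649, 95% interval -0.29 to -0.01, edgeR adjusted p = 0.133). DESeq2 gave an adjusted p of 0.00918, and the adjusted p in the authors' deposited table, also from DESeq2, was 0.00851. No other alternative run called Abcc8. Its adjusted p was 0.0583 with limma-voom, and with edgeR 0.186 with the replicate block and 0.376 without a filter.

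The 2 subunits assemble in equal number, so their ratio was compared within libraries. Per length, Abcc8 exceeded Kcnj11 4.47, 5.27, 4.67 and 4.39 times in WT and 5.46, 5.03, 5.07 and 5.08 times in Wfs1KO. WT replicate 2 lay within the Wfs1KO range and the other WT libraries below it. The log2 ratio of Kcnj11 to Abcc8 was -2.23 ± 0.119 in WT and -2.37 ± 0.0549 in Wfs1KO, and the difference of -0.14 did not pass a two-sided exact permutation test (p = 0.114, where 0.0286 is the smallest 4 against 4 libraries allow). Without WT replicate 2 the difference was -0.19 with an exact p of 0.0286, the smallest possible there too. Leaving out this library removes the only overlap between the groups, which by itself gives that p. Without any other single library the exact p lay between 0.114 and 0.229.

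Abcc9 rose from 10.8, 9.52, 8.91 and 10.5 CPM in WT to 20.3, 15.6, 13.5 and 12.8 CPM in Wfs1KO. The groups did not overlap, and Wfs1KO replicates 1 and 2 were highest. Its log2 fold change was 0.65 (SE 0.137, edgeR adjusted p = 0.00492). Kcnj8, at 1.47, 1.90, 0.878 and 0.982 CPM in WT and 2.94, 2.23, 0.865 and 0.990 CPM in Wfs1KO, overlapped between genotypes and was not called (log2 fold change 0.44, SE 0.407, edgeR adjusted p = 0.517). On the RPKM scale Abcc9 reached 1.36 ± 0.117 in WT and 2.13 ± 0.460 in Wfs1KO, far under Abcc8 in both.

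**Figure D3:**
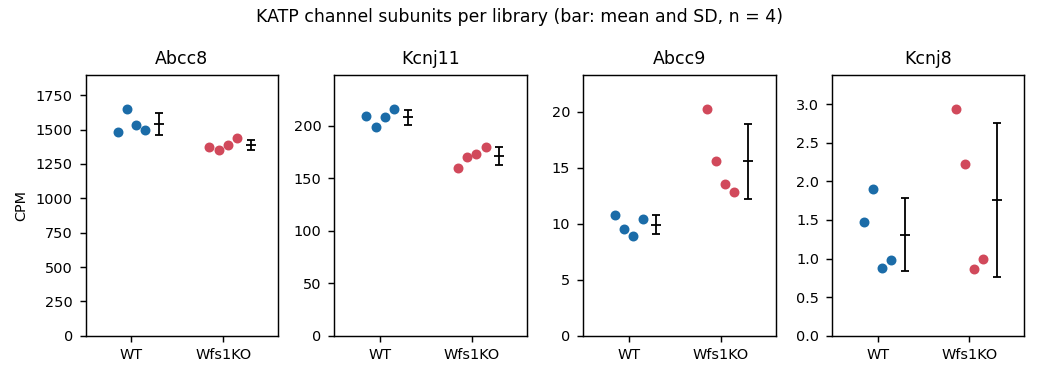
CPM of the 4 KATP channel genes in each library, with mean and SD (n = 4) to the right of each group and axes from 0. Kcnj11 and Abcc8 lie lower in Wfs1KO without overlap, Abcc9 lies higher, and Kcnj8 overlaps.

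Markers of blood vessel cells, summed by list, were also higher in Wfs1KO. All 10 endothelial markers rose, with summed levels of 565 to 644 CPM in WT and 773 to 912 CPM in Wfs1KO. Of 8 pericyte and smooth muscle markers 7 were tested and 5 rose, and the list summed to 205 to 231 CPM in WT and 314 to 353 CPM in Wfs1KO. Defining markers of both types, Pecam1 (log2 fold change 0.64) and Rgs5 (0.70), were detected in every library. Of 6 stellate and fibroblast markers none was called, and that list summed to 36.6 to 101 CPM in WT and 46.1 to 114 CPM in Wfs1KO. With the mean level of the endothelial markers as a covariate the log2 fold change of Abcc9 was 0.26 and no member was called, but that mean separates the genotypes almost completely (R squared 0.963), so the part of these cells in the Abcc9 result and the genotype cannot be told apart.

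Among inward rectifiers, which pass potassium into the cell more readily than out, Kcnj12 had the lowest fold change of all tested members and the smallest adjusted p. This gene (chr11:61022564-61073267, plus strand, mm10) encodes Kir2.2, a strong rectifier that holds the resting potential. It stood at 26.3, 25.9, 24.9 and 26.3 CPM in WT and at 7.77, 6.05, 9.75 and 8.51 CPM in Wfs1KO. All WT libraries lay within a narrow band and the highest Wfs1KO library was far below it. The log2 fold change was -1.70 (SE 0.110, edgeR adjusted p = 3.82e-07), a level 3.24 times lower.

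Kcnj4, which encodes the related Kir2.3, rose. It went from 2.26, 2.31, 2.09 and 2.45 CPM to 4.17, 5.08, 3.52 and 4.45 CPM without overlap (log2 fold change 0.91, SE 0.169, edgeR adjusted p = 0.00185). On the RPKM scale Kcnj12 was above Kcnj4 in WT, 5.85 ± 0.147 against 1.06 ± 0.0692, and in Wfs1KO the means were 1.81 ± 0.350 and 2.004 ± 0.302. Kcnj2 (Kir2.1) was not called (log2 fold change 0.38, SE 0.219, edgeR adjusted p = 0.263). Of the 9 inward rectifier genes outside the KATP and G protein-gated groups, 6 were tested: 1 rose, 1 fell and 4 were not called. Their summed level was 8.59 ± 0.379 RPKM in WT and 5.85 ± 0.409 RPKM in Wfs1KO.

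G protein-gated rectifiers (GIRK), which hormone and neurotransmitter receptors open through G proteins, were low and none was called. Kcnj6 (GIRK2) had 1.99 ± 0.388 RPKM in WT and a log2 fold change of 0.18 (SE 0.144, edgeR adjusted p = 0.426). Kcnj3 (GIRK1) had 1.001 ± 0.0905 RPKM and a log2 fold change of 0.31 (SE 0.135, edgeR adjusted p = 0.134). A long non-coding RNA gene on the opposite strand overlaps 31.1% of the exon bases of Kcnj3, and reads of the 2 strands were not separated. Kcnj5 (GIRK4), at 0.0585 ± 0.0514 RPKM in WT, had too few reads to test, and Kcnj9 (GIRK3) was not called.

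Two-pore channel genes numbered 14, of which 9 were tested: 2 rose, 1 fell and 6 were not called. Kcnk16, the dominant one, had 136, 118, 142 and 173 CPM in WT and 127, 122, 132 and 121 CPM in Wfs1KO. The groups overlapped because the WT libraries ranged widely (log2 fold change -0.18, SE 0.0939, edgeR adjusted p = 0.220). Among the alternative runs Kcnk16 was called only without WT replicate 2 (-0.26, edgeR adjusted p = 0.0369). That is the lowest WT library, so leaving it out raises the WT mean and enlarges the difference.

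Kcnk1 rose from 39.6, 31.7, 37.0 and 33.7 CPM to 49.97, 50.2, 51.1 and 53.5 CPM. All Wfs1KO libraries were above all WT libraries (log2 fold change 0.53, SE 0.0686, edgeR adjusted p = 1.39e-04). Kcnk5 (TASK-2), a pH-sensitive channel, rose from 0.999, 0.981, 0.945 and 0.883 CPM to 2.42, 2.27, 1.96 and 1.98 CPM. It was scarce in both genotypes and did not overlap (log2 fold change 1.18, SE 0.243, edgeR adjusted p = 0.00376). Kcnk5 (chr14:20140058-20181782) and Kcnk16 (chr14:20262756-20269162) lie near each other on the minus strand.

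Kcnk13 (THIK-1) fell from 2.52, 2.42, 2.50 and 2.85 CPM to 1.65, 1.98, 1.096 and 1.39 CPM, close to the threshold (log2 fold change -0.74, SE 0.236, edgeR adjusted p = 0.0414). It was no longer called when any 1 library other than Wfs1KO replicate 2 was left out, with an adjusted p of up to 0.110, or without a filter on low counts (0.0516). Its relative Kcnk12 (THIK-2) was more abundant, at 8.95 ± 1.20 RPKM in WT and 9.15 ± 0.778 RPKM in Wfs1KO, and was not called (log2 fold change 0.03).

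Kcnk3 (TASK-1), at 7.40 ± 0.758 RPKM in WT and 8.67 ± 0.781 RPKM in Wfs1KO, was not called (log2 fold change 0.23, SE 0.0831, edgeR adjusted p = 0.0744). With the replicate number as a block its adjusted p was 0.0317. Kcnk10 (TREK-2) had 2.68, 2.94, 0.675 and 1.33 CPM in WT and 5.29, 4.21, 3.0003 and 3.27 CPM in Wfs1KO. The groups did not overlap, yet in WT replicates 1 and 2 were well above 3 and 4 (log2 fold change 1.04, SE 0.370, edgeR adjusted p = 0.0746). With the replicate block the adjusted p was 0.00696, and in the authors' deposited table it was 0.0232.

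Kv2 channels carry delayed rectifier current, which repolarises the cell. Kcnb2 (Kv2.2) had 1.18 ± 0.105 RPKM in WT and was not called (log2 fold change -0.10, SE 0.116, edgeR adjusted p = 0.635).

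Silent Kv subunits form no channel alone but join Kv2 pores and change their gating. Of 10 such genes 4 were tested, 2 rose, 1 fell and 1 was not called. Kcnf1 (Kv5.1), the most abundant, rose from 21.5, 17.7, 28.5 and 21.5 CPM to 32.9, 31.6, 39.2 and 32.5 CPM. The groups did not overlap, and replicate 3 was highest in both (log2 fold change 0.61, SE 0.125, edgeR adjusted p = 0.00560).

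Kcng3 fell from 8.15, 8.02, 6.15 and 5.10 CPM to 4.80, 4.06, 3.69 and 4.75 CPM. WT replicates 3 and 4 lay near the Wfs1KO values, though without overlap (log2 fold change -0.66, SE 0.166, edgeR adjusted p = 0.0130). Without WT replicate 1 the adjusted p was 0.0522.

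Kcns3 (Kv9.3) rose, on very few reads. It had 11, 4, 5 and 7 counts in WT and 39, 32, 27 and 26 counts in Wfs1KO, or 0.578, 0.231, 0.338 and 0.344 CPM against 1.37, 1.55, 1.56 and 1.29 CPM. The groups did not overlap (log2 fold change 1.92, SE 0.360, edgeR adjusted p = 0.00202), and the authors' deposited table gives an adjusted p of 1 for this gene. It passed the filter on low counts through the Wfs1KO libraries, since 1 of 4 WT libraries reached 10 counts, so the filter favoured a difference. With no filter edgeR's adjusted p was 0.0012, but that fit uses the same few reads and gives no separate support. Its level in Wfs1KO, 0.492 ± 0.0461 RPKM, remained far under that of Kcnf1, 7.12 ± 0.730 RPKM.

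Upstream sequence is shown for Kcns3 and Kcnj4, 2 of the risen members with large fold changes whose table start coincides with a RefSeq start (GRCm38.p6, the same build as mm10). Each line gives the 250 bases before the start, 5′ to 3′ on the gene's strand, Kcns3 at chr12:11150374-11150623, minus strand, and Kcnj4 at chr15:79505242-79505491, minus strand. Capitals mark the GC box GGGCGG on either strand, the letters bound by SP family factors.
Kcns3: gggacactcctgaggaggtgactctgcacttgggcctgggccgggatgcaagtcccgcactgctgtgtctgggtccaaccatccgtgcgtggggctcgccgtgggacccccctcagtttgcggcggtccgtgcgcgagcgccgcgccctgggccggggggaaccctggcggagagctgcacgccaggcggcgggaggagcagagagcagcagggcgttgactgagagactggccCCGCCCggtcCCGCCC
Kcnj4: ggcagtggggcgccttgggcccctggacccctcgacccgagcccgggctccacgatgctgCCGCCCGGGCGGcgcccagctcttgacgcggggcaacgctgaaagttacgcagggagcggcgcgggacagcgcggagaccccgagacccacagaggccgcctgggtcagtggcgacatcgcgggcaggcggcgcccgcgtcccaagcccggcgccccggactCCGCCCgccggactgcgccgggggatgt
Both windows are rich in G and C, at 72.8% and 77.2%, and in Kcns3 the marked letters sit within 16 bases of the start. Of 99 members, 62 had a RefSeq window starting within 100 bases of the table's start, and 33 of these (53.2%) held a GC box, as did 32.7% of all 32851 windows. It was found in 5 of 8 risen and 3 of 6 fallen members with a window. The MAF half-site TGCTGAC was in 3 of the 62 windows, Kcnip1 being the one called member, and in 3.81% of all. Neither the ATF4 composite site TGATGNAA (3.45% of all windows) nor the cyclic AMP response element TGACGTCA (1.55%) was in any of the 62. Both strands were searched, and a match describes letters only.

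**Figure D4:**
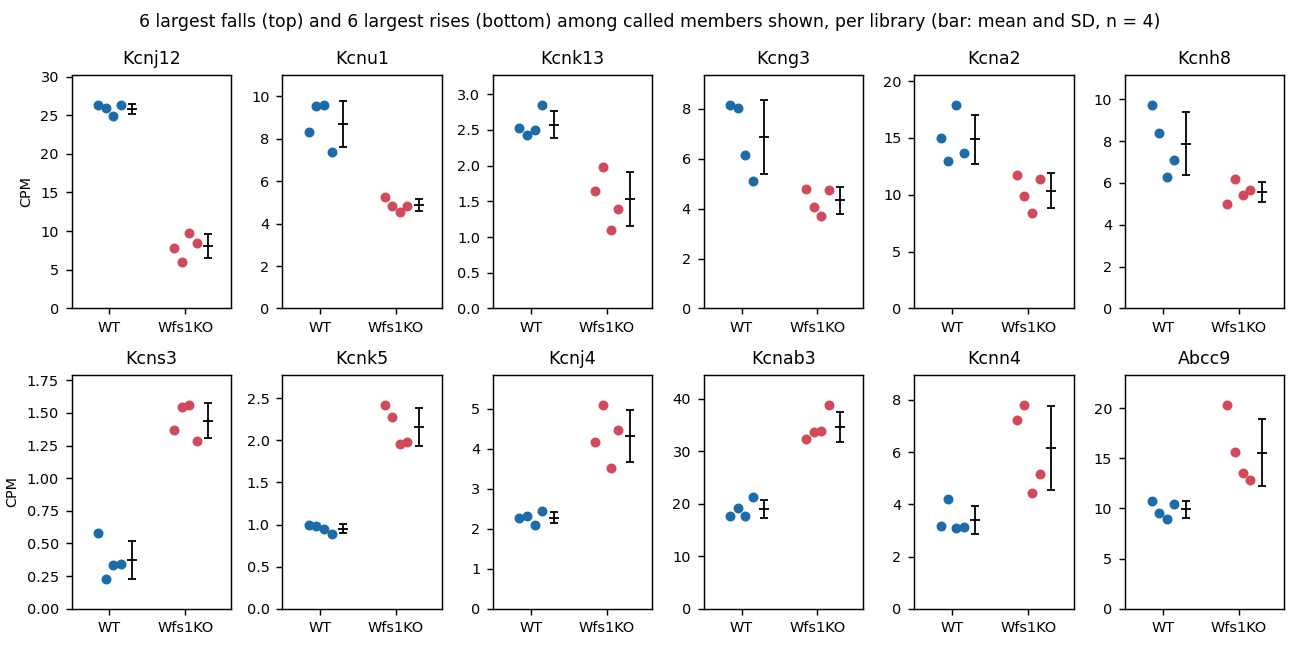
CPM per library for the 6 called members reported here with the lowest (top row) and the 6 with the highest log2 fold change (bottom row), with mean and SD (n = 4) and axes from 0. None of the 12 genes overlaps between genotypes. Kcns3, Kcnk5 and Kcnk13 stay under 3 CPM in all libraries, and Wfs1KO replicates 1 and 2 are highest for Kcnn4 and Abcc9.

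Cytoplasmic Kv beta subunits bind Kv1 channels and resemble aldo-keto reductases. Kcnab3 (chr11:69326258-69333041, plus strand) had the smallest adjusted p of the members that rose. It stood at 17.7, 19.1, 17.8 and 21.3 CPM in WT and at 32.3, 33.7, 33.8 and 38.7 CPM in Wfs1KO. Every Wfs1KO library was well above the WT range (log2 fold change 0.86, SE 0.0789, edgeR adjusted p = 7.64e-06). An antisense gene overlaps 5.13% of its exon bases.

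Kcnab1 and Kcnab2 had log2 fold changes of 0.54 and 0.47 and were not called (edgeR adjusted p = 0.0976 and 0.0593). The 3 genes together had 9.64 ± 0.777 RPKM in WT and 16.7 ± 0.951 RPKM in Wfs1KO. Their partners, the Kv1 pores, were low: of 8 genes 7 were tested and 1 was called. Kcna2 (Kv1.2) fell from 14.98, 13.0, 17.9 and 13.7 CPM to 11.7, 9.92, 8.37 and 11.4 CPM without overlap (log2 fold change -0.51, SE 0.123, edgeR adjusted p = 0.00985). Kcna5 (Kv1.5), the most abundant Kv1 gene per length at 2.18 ± 0.331 RPKM in WT, had all Wfs1KO libraries above WT but was not called (log2 fold change 0.32, edgeR adjusted p = 0.0980).

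Kv4 pores inactivate quickly, and KChIP subunits bring them to the surface. Kcnip1 rose from 61.0, 62.1, 63.3 and 63.6 CPM to 85.4, 94.4, 81.6 and 87.9 CPM. The WT libraries were nearly equal and the groups were far apart (log2 fold change 0.48, SE 0.0548, edgeR adjusted p = 4.77e-05). Kcnd1 (Kv4.1), the most abundant of the 3 Kv4 pores, fell from 10.4, 11.4, 11.8 and 12.2 CPM to 8.26, 8.42, 9.23 and 8.91 CPM, also without overlap (log2 fold change -0.40, SE 0.0904, edgeR adjusted p = 0.00713).

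The other KChIP genes, Kcnip2, Kcnip3 and Kcnip4, were not called, with log2 fold changes of 0.19, 0.14 and 0.17. Kcnd2 and Kcnd3 were not called either. Per length, Kcnip1 exceeded all 3 Kv4 pores together in WT, 28.0 against 3.57 ± 0.246 RPKM.

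Kv3 genes encode pores of fast-closing channels. Kcnc1, at 0.0905 RPKM in WT, had all Wfs1KO libraries above WT (log2 fold change 0.82, edgeR adjusted p = 0.0894), and Kcnc2 had a log2 fold change of 0.42 and an adjusted p of 0.0581, or 0.0413 with the block.

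Of the 8 genes of the EAG and ERG family 6 were tested, 2 fell and 4 were not called. ERG channels open on repolarisation and are known to shape beta cell firing. Kcnh6 (ERG2) had 104, 124, 115 and 106 CPM in WT and 87.0, 87.0, 104 and 91.2 CPM in Wfs1KO. It fell (log2 fold change -0.28, SE 0.0733, edgeR adjusted p = 0.0160), and it is the one called member whose groups overlapped, through Wfs1KO replicate 3. Its adjusted p was 0.0501 without Wfs1KO replicate 1 and 0.0545 without Wfs1KO replicate 2.

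Kcnh2 (ERG1) had 148, 155, 171 and 155 CPM in WT and 133, 138, 157 and 134 CPM in Wfs1KO. In both genotypes replicate 3 was highest, and the groups overlapped. It was not called (log2 fold change -0.16, SE 0.0651, edgeR adjusted p = 0.105), while with the replicate block its adjusted p was 0.0418. Kcnh8 (ELK channel) fell from 9.72, 8.37, 6.28 and 7.12 CPM to 5.01, 6.19, 5.42 and 5.64 CPM, with little space between the groups (log2 fold change -0.51, SE 0.142, edgeR adjusted p = 0.0236). Leaving out WT replicate 1, WT replicate 2 or Wfs1KO replicate 1 took its adjusted p to between 0.0576 and 0.0897.

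KCNQ channels open slowly near the resting potential. Kcnq1 (Kv7.1), a gene in a type 2 diabetes susceptibility region, had 4.84, 5.25, 6.82 and 5.10 CPM in WT and 3.85, 3.97, 2.88 and 7.82 CPM in Wfs1KO.

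For Kcnq1, 3 Wfs1KO libraries lay below all WT libraries and replicate 4 lay above them. It was not called (log2 fold change -0.24, SE 0.269, edgeR adjusted p = 0.602), and without Wfs1KO replicate 4 the log2 fold change was -0.62 with an adjusted p of 0.0272. Kcnq1ot1, the long non-coding RNA transcribed from the opposite strand of Kcnq1, was not called (log2 fold change 0.10, SE 0.0717, edgeR adjusted p = 0.385). The 2 overlap in 2.96% of the exon bases of Kcnq1. The KCNE genes, accessory subunits of KCNQ channels, were all under 1 RPKM, and the one tested, Kcne4, was not called.

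BK channels respond to calcium and voltage together. The pore gene Kcnma1 had 78.3, 66.8, 77.5 and 81.5 CPM in WT and 75.6, 70.8, 70.3 and 80.4 CPM in Wfs1KO. These ranges overlapped almost fully, and the log2 fold change was -0.03 (SE 0.0682, 95% interval -0.18 to 0.11, edgeR adjusted p = 0.793). Its accessory subunit Kcnmb2 fell from 154, 162, 162 and 156 CPM to 133, 139, 121 and 143 CPM. The groups did not overlap (log2 fold change -0.24, SE 0.0574, edgeR adjusted p = 0.00866).

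Kcnmb1, the smooth muscle BK subunit, had 1.52, 1.33, 1.35 and 1.33 CPM in WT and 1.89, 2.08, 2.31 and 2.62 CPM in Wfs1KO. No library overlapped, but it was not called (log2 fold change 0.68, SE 0.232, edgeR adjusted p = 0.0570). The gene (chr11:33963013-33973638, plus strand) lies inside the span of Kcnip1 (chr11:33629341-33993193, minus strand). The smooth muscle and pericyte markers given beside Abcc9 were, summed as a list, also higher in Wfs1KO. Their part in the values of Kcnmb1 was not tested. Kcnu1 (Slo3), a relative of BK best known from sperm, fell from 8.30, 9.52, 9.59 and 7.36 CPM to 5.25, 4.84, 4.56 and 4.85 CPM without overlap (log2 fold change -0.83, SE 0.121, edgeR adjusted p = 3.26e-04).

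Calcium-activated SK and IK channels open with calcium alone and contribute to the slow afterhyperpolarisation of beta cells. Of their 4 genes 2 rose and 2 were not called. Kcnn4 (IK) rose from 3.15, 4.21, 3.11 and 3.14 CPM to 7.25, 7.79, 4.44 and 5.15 CPM. Wfs1KO replicates 1 and 2 were the highest, and Wfs1KO replicate 3 lay close to WT replicate 2 (log2 fold change 0.86, SE 0.193, edgeR adjusted p = 0.00641).

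Kcnn2 (SK2) rose from 8.41, 7.79, 8.17 and 6.23 CPM to 9.63, 9.29, 10.2 and 10.6 CPM without overlap (log2 fold change 0.38, SE 0.111, edgeR adjusted p = 0.0285). Without WT replicate 4 or Wfs1KO replicates 3 or 4 its adjusted p was between 0.0665 and 0.0787. Kcnn3 (SK3), the most abundant of the group at 8.94 ± 0.341 RPKM in WT, had 70.9, 68.9, 67.4 and 64.7 CPM in WT and 70.7, 73.2, 73.4 and 92.3 CPM in Wfs1KO. The groups overlapped at WT replicate 1, and it was not called (log2 fold change 0.19, SE 0.0782, edgeR adjusted p = 0.119). Kcnn1 (SK1) and the sodium-activated Kcnt1 were not called.

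Proteins that bind or act beside these channels were followed as a list of 26 genes without a Kcn name and with known ties to potassium channels. Of these 24 were tested, 4 rose, 4 fell and 16 were not called, with a median log2 fold change of -0.10. That is 16.7% in each direction, against 10.4% risen and 8.49% fallen over all tested genes, whose median was 0.01. With so few genes no difference from these shares was tested. Lrrc52, a partner of Slo3, had no read in any library.

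Amigo1, a membrane partner of Kv2 channels, fell with a log2 fold change of -0.18 (SE 0.0535, edgeR adjusted p = 0.0270). The syntaxin gene Stx1a, whose product binds the KATP channel, fell with a log2 fold change of -0.52 (SE 0.0830, edgeR adjusted p = 6.46e-04). Rapgef4 (Epac2), a cyclic AMP sensor that binds SUR1, fell by 0.21 on the log2 scale (SE 0.0480, edgeR adjusted p = 0.00786). The Kv4 accessory genes went in opposite directions: Dpp6 rose by 0.31 on the log2 scale (edgeR adjusted p = 0.00895) and Dpp10 fell by 0.36 (edgeR adjusted p = 0.0420).

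Calm2, which encodes the calmodulin that gates SK and IK channels, rose with a log2 fold change of 0.19 (edgeR adjusted p = 0.0404), and Calm3 was not called (-0.14). Tmem38a, which encodes the intracellular cation channel TRIC-A, rose with a log2 fold change of 0.46 (SE 0.0576, edgeR adjusted p = 1.01e-04). The hyperpolarisation-activated Hcn2, Hcn3 and Hcn4, relatives of the Kv family, were not called.

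Markers of the endocrine cells also differed between genotypes. Of 10 beta cell markers 8 fell and 1 rose, and their summed level was 163210 to 209020 CPM in WT and 110440 to 135700 CPM in Wfs1KO. That sum was set mainly by the insulin genes Ins2 and Ins1, with means of 114880 and 38988 CPM in WT. Of 8 alpha cell markers 1 rose and 1 fell, and of 6 delta and PP cell markers 3 rose and none fell. No acinar marker of 8 and no macrophage or lymphoid marker of 7 was called. The part of these cells in the channel results was not tested, apart from the acinar markers: with their mean level as a covariate 20 of the 22 called members kept their call. Kcnk13 was among those that did not, with an adjusted p of 0.105.

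**Figure D5:**
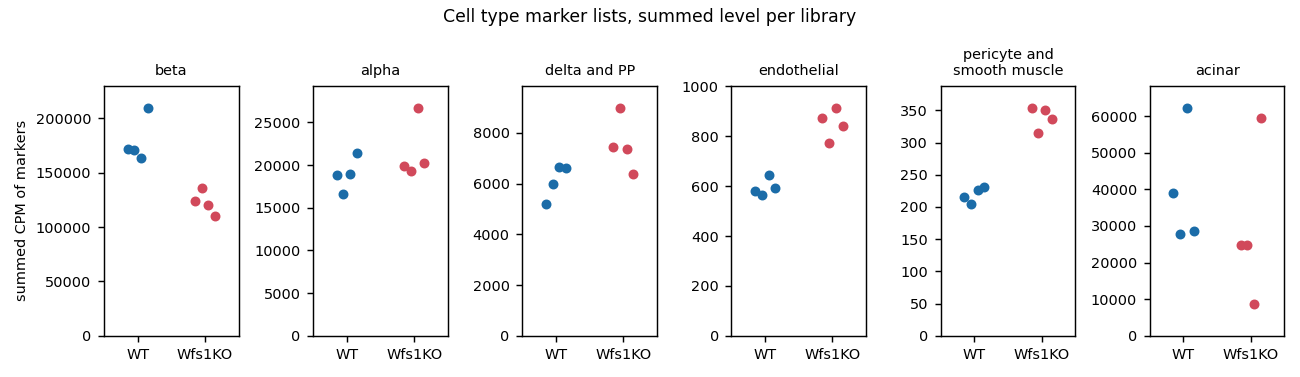
Summed CPM of 6 lists of cell type markers in each of the 8 libraries, axes from 0. Endothelial and pericyte lists are higher and the beta list lower in every Wfs1KO library, while the acinar list ranges widely within both genotypes. The beta sum is set mainly by Ins2 and Ins1.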

How the data were processed

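Islet RNA from 4 WT and 4 Wfs1KO samples was analysed. The submitters' processing notes name bcl2fastq, STAR 2.6.0a, HOMER 4.11.1 and the mm10 build. The deposited counts are raw reads in exons per gene, condensed to 1 entry per gene with no strand option, per the file headers. Opposite-strand exons therefore share reads: this concerns 31 members, and among the called ones Abcc9, Kcnab3, Kcnk1 and Kcnn2. The authors' deposited log2 fold changes and p-values come from DESeq2 with settings not given in the sources used here, and are quoted only as theirs.

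Counts were tested with edgeR 4.0.16 under R 4.3.3 (scaling by TMM, filterByExpr with a minimum count of 10, robust quasi-likelihood F-test, Benjamini-Hochberg over all tested genes), the method behind every adjusted p unless another is named. "Rose" and "fell" mean an adjusted p under 0.05. CPM uses TMM-scaled library sizes, and RPKM divides it by the deposited length of 1 transcript per gene, so levels depend on that transcript. DESeq2 1.42.0 and limma 3.58.1 were alternatives. The scripts were tested on simulated data.

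Groups came from the genotype labels. Nothing in them says that samples came from separate animals, so p-values measure the spread between these samples. Same-numbered samples deviated together (correlations 0.153, 0.443, 0.269 and 0.188), but the labels do not say what the number marks. Differently numbered samples were not compared in this way. The first principal component split the replicate numbers into the same sets in both genotypes, so same-numbered samples also lay on the same side of it. Whether the number marks pairs was therefore not tested. The main calls use no replicate block, and the block was an alternative run. The members, families and lists were chosen with earlier results of these data known. Named with values were key islet channel genes, all called members, the 10 most abundant, uncalled members without overlap, and called partners. Others, such as Kcnk12, Kcnab1, Kcnab2 and Kcnc2, were added after their values were seen to complete a family. The GC box was searched after the promoter windows had been read. Some genes are not reported here by name or in the plots, and counts over the members include them.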

Additional observations from a re-analysis of the deposited data

Results flagged for a closer look

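Within a group of 4 libraries, 8 values stood apart from the other 3 by more than Dixon's 95% limit, out of 140 groups examined (all 70 tested members in each genotype). Chance alone gives about 1 such value in 20 groups. In WT, Kcnb2, the Kv2.2 pore, was at 7.0951 CPM in replicate 1 and at 5.9391 to 6.0106 CPM in the other libraries. Kcnc2 was at 9.0047 CPM in WT replicate 2, against 6.4299 to 6.8323 CPM. Kcnj2, the Kir2.1 pore, was low in WT replicate 3, at 2.2286 CPM against 3.8285 to 4.0468 CPM. Kcnmb1 was at 1.5241 CPM in WT replicate 1, against 1.3253 to 1.3507 CPM. Kcnn4, the IK pore, was at 4.2137 CPM in WT replicate 2, against 3.1066 to 3.1534 CPM, and still lay below its lowest Wfs1KO library. In Wfs1KO, Kcnn3, the SK3 pore, was at 92.287 CPM in replicate 4, against 70.73 to 73.393 CPM. Kcnd3, a Kv4 pore, was at 2.8206 CPM in the same library, against 2.1348 to 2.2259 CPM, and Kcnk12 was at 20.079 CPM in Wfs1KO replicate 3, against 16.824 to 17.262 CPM.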

How the results depend on the processing

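Of the 22 called members, 16 kept their call under every alternative run except the endothelial covariate. Kcng3, Kcnh6, Kcnh8, Kcnn2 and Kcnk13 were among those that did not, and their values stand beside the results. With the replicate block 13 members were higher and 14 lower, and all 22 calls were kept, as they were with replicates 1 and 2 against 3 and 4 as a covariate. At an adjusted p under 0.01, 7 were lower, and at one under 0.1, 18 were higher. Leaving out each library in turn gave 10 to 12 higher and 8 to 12 lower. With the endothelial score as covariate 0 were higher and 0 lower, and the log2 fold changes of Kcnf1 (-0.64), Kcnh8 (0.88), Kcnk13 (0.38) and Kcnmb2 (0.0697) took the other sign. That score is almost the same as genotype (R squared 0.963), the median SE rose from 0.0873 to 0.451 and 3 of all genes were called, so this fit cannot tell the score and the genotype apart. The Kcnj11 to Abcc8 difference was -0.19 to -0.11 without single libraries, and a sign-flip test over the 4 replicate-block pairs gave an exact p of 0.25 (0.125 is the smallest it allows). Depth limits the 29 untested members and those under about 1 CPM.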
